A study of Mus musculus with 40 samples.

Results

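The genes of the CDK1 and cyclin B switch were examined in 40 single cells from mouse testis. They are 8 genes named by symbol: Cdk1, Ccnb1, Ccnb2, Cdc25a, Cdc25b, Cdc25c, Wee1 and Pkmyt1. All 8 were found among the 55492 genes of the deposited count table, and 7 were measured, which here means at least 20 counts summed over the 40 cells. The exception was Cdc25b, with 1 count in 1 cell. Of the cells, 20 are named Pachytene and 20 Metaphase I. All come from C57BL/6J mice aged 6 to 8 weeks. Elutriated spermatocytes were the starting material, and exposure to 4 µM okadaic acid for 5 h served to drive them to metaphase I. Okadaic acid inhibits the phosphatases PP1 and PP2A. One protocol text covers both groups and does not say whether the Pachytene cells stayed in culture without the drug, so stage, drug and time in culture cannot be told apart. No animal or culture is named, so each group was taken as 1 sample. Differences between the groups are therefore described with counting intervals and not tested.

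Cyclin-dependent kinase 1, the product of Cdk1, drives entry into M phase once it is bound to a B-type cyclin, encoded by Ccnb1 or Ccnb2. WEE1 and the membrane-bound kinase PKMYT1 hold the complex inactive by phosphorylating CDK1, and the CDC25 phosphatases remove these phosphates. In late spermatocytes this switch sets the end of the long meiotic prophase, and okadaic acid is a classical means of forcing it in isolated pachytene cells. Most of this control acts on proteins, whereas the values here are transcript counts.

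The cells carried from 165048 to 2325564 counts, with a median of 730979 in Pachytene and 540662 in Metaphase I. Levels are given in CPM, the counts of a gene scaled to the same total in every cell. Of the 10 spermatocyte markers, among them Sycp3, Hspa2, Ovol2 and Ccna1, all but Spag6 had counts in all 40 cells. Spag6 had counts in 12 Pachytene and 16 Metaphase I cells. The 10 markers together ran from 2421 to 4104 CPM in Pachytene and from 1772 to 4139 CPM in Metaphase I. X-linked genes, largely silent in pachytene, held over 0.3% of the counts in 8 libraries, 4 of each group (Pachytene replicates 2, 3, 7 and 19, Metaphase I replicates 3, 7, 17 and 19). In these 8 libraries the 10 elongating spermatid markers summed to between 48.3 and 5853 CPM, against 0 to 1236 CPM in the 32 others. Metaphase I replicate 19 was the library at 48.3 CPM. It had 13336 CPM of Sertoli markers, against at most 211 CPM in the 32 others, although the Sertoli genes Amh, Gata4, Rhox5 and Trf were at 0 there as elsewhere. Values without the 8 libraries are given beside the results they touch, and the part these libraries play in a result was not tested.

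The transcripts of the switch differed widely in level. Scaled to the exon length of the gene, the summed level over the 40 cells was 399.7 CPM per kb for Ccnb2, 42.7 for Ccnb1, 22.6 for Cdk1, 7.18 for Cdc25a, 6.60 for Wee1, 5.03 for Cdc25c and 4.58 for Pkmyt1. The libraries kept 3' ends, for which a scaling by length may not apply. The unscaled levels began with the same 4 genes, at 612 CPM for Ccnb2, 180 CPM for Ccnb1, 111 CPM for Cdk1 and 57.6 CPM for Cdc25a. Below these, Cdc25c (24.8 CPM), Wee1 (22.6 CPM) and Pkmyt1 (16.7 CPM) overlapped broadly from cell to cell, so their order is not distinct from the spread over cells. Cdc25b was near absent, at 1 count in Pachytene replicate 1 and 0 counts in the Metaphase I group, which allows up to 0.269 CPM there by the exact Poisson interval. A fold is not given for Cdc25b. Exons of Cdc25b and of the ciliary gene Spef1, on opposite strands, share 92 bases, and Spef1 had 566 counts.

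**Figure D1:**
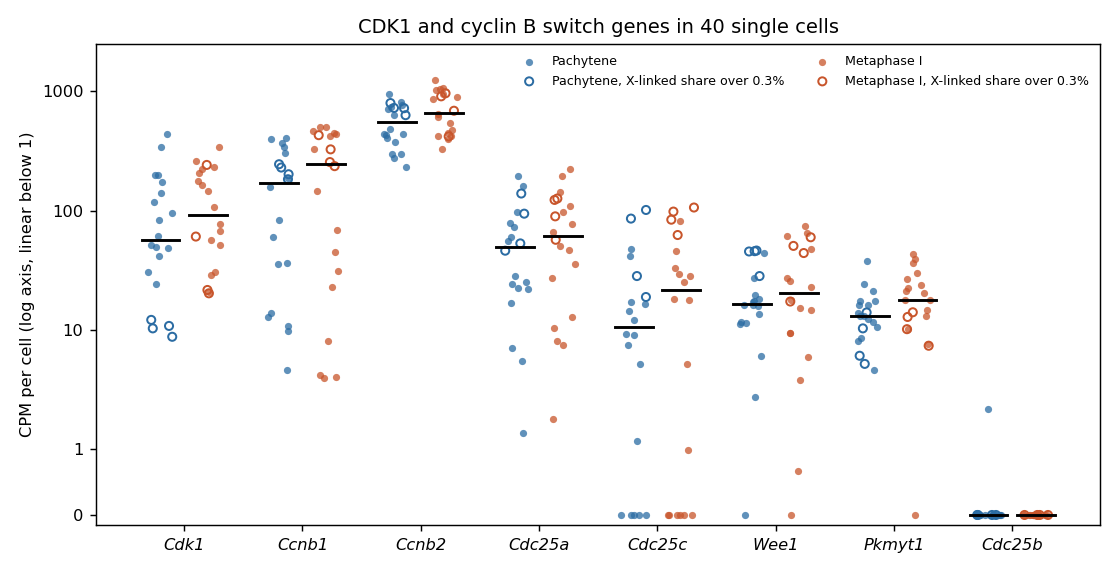
CPM of the 8 genes in each of the 40 cells on a log axis that is linear below 1, with black bars at the group medians and open circles for the 8 libraries with over 0.3% X-linked counts. The groups overlap for each measured gene, with Ccnb1 from 4.59 to 404 CPM in Pachytene and from 3.92 to 505 CPM in Metaphase I. The open circles lie low for Cdk1, except Metaphase I replicate 19 at 241 CPM.

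The levels in the groups were close. None of the 7 measured genes differed over 2-fold between the summed groups, on a log2 ratio with 1 CPM added to each group. Over all 16174 genes measured, 8.49% were over 2-fold higher and 9.81% over 2-fold lower, and 0 of 7 is close to these shares. At a limit of 1.5-fold, 1 of the 7, Pkmyt1, was higher and 0 were lower, against 17.3% and 18.8% of all genes. Pkmyt1 was no longer past 1.5-fold with equal weight per cell, medians over cells, TMM scaling, thinned cells or a pseudocount of 10 CPM (log2 0.41 to 0.56). Without the 8 libraries its log2 ratio was 0.56, also under the limit, but the ratio before the CPM was added was 1.51 (1.25 to 1.82). Cdc25c was past 1.5-fold with equal weight (0.59) and medians (0.96), as was Cdk1 with medians (0.71). Before the CPM was added, the ratio of the Cdc25c medians was 2.04, past 2-fold. The median log2 ratio of the 7 was 0.26, with a range of 0.07 to 0.61. Over all genes the median was -0.0010, with quartiles of -0.40 and 0.38. All 7 ratios lay above 0.

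The kinase subunit is encoded by Cdk1 (chromosome 10, 69335146 to 69352938, minus strand, GRCm38). Over the Pachytene cells Cdk1 ran from 8.71 to 437 CPM with a median of 56.1, and over the Metaphase I cells from 20.2 to 343 CPM with a median of 92.2. The groups overlapped almost throughout, with 14 of 20 Metaphase I cells above the Pachytene median and 0 above the highest Pachytene cell, replicate 11. The sums were 1844 and 1647 counts, a ratio of 1.15 (exact 95% interval 1.08 to 1.23, for counting error only). Without the 8 libraries the ratio was 0.951 (0.887 to 1.02), and without Metaphase I replicate 20, which held 22.2% of the Cdk1 counts of its group, it was 0.997 with the added CPM. The direction for Cdk1 thus turned with the libraries used.

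The activating subunit cyclin B1 is encoded by Ccnb1 (chromosome 13, 100778650 to 100786570, minus strand). Ccnb1 spread widely in both groups. Over Metaphase I cells its lowest value was 3.92 CPM in replicate 14 and its highest 505 CPM in replicate 6, a 129-fold range, with quartiles of 29.0 and 432 CPM. Over Pachytene cells its quartiles were 30.4 and 259.5 CPM, within an 88.0-fold range. No cell lay between 82.8 and 146 CPM, a step chosen after the values were seen. Below it were 9 Pachytene and 8 Metaphase I cells, and above it 11 and 12. Both groups therefore held cells with little and with much Ccnb1 in nearly the same proportion. In the sums the ratio was 1.20 (1.13 to 1.26), and 1.22 (1.15 to 1.30) without the 8 libraries. Metaphase I replicate 20 held 22.5% of the Ccnb1 counts of its group, and without it the ratio was 1.03 with the added CPM. Of the Metaphase I cells, 7 exceeded the highest Pachytene cell, at 404 CPM, while 3 fell below the lowest.

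Cyclin B2, the product of Ccnb2 (chromosome 9, 70407692 to 70421547, minus strand), has a role that overlaps that of cyclin B1. Ccnb2 varied least relative to its mean, with a coefficient of variation over cells of 0.384 in Pachytene and 0.394 in Metaphase I, against 0.868 and 0.845 for Ccnb1. It ran from 230 to 956 CPM in Pachytene (median 557) and from 330.2 to 1253 CPM in Metaphase I (median 665). Each cell of both groups thus had Ccnb2, and 5 Metaphase I cells lay above the highest Pachytene cell. The summed ratio was 1.22 (1.19 to 1.26), and 1.30 (1.26 to 1.35) without the 8 libraries.

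The activating phosphatase genes were expressed unequally. Cdc25a (chromosome 9, 109875579 to 109893895, plus strand), whose product also acts at entry into S phase, ran from 1.35 to 195 CPM in Pachytene (median 49.5) and from 1.77 to 224 CPM in Metaphase I (median 61.2). Its summed ratio was 1.25 (1.14 to 1.37), and 1.24 (1.11 to 1.38) without the 8 libraries. Metaphase I replicate 2 held 20.3% of the Cdc25a counts of its group, and without it the ratio was 1.06 with the added CPM. For Cdc25a, 1 Metaphase I cell lay above all Pachytene cells. Cdc25c, on chromosome 18, encodes the phosphatase best known for M-phase entry. It had counts in 15 Pachytene and 14 Metaphase I cells, up to 101 and 106 CPM, with medians of 10.6 and 21.6 CPM. Its summed ratio was 1.05 (0.909 to 1.21), and 1.19 (0.939 to 1.51) without the 8 libraries. Both intervals include 1. Pachytene replicate 7 held 46.5% of the Cdc25c counts of its group, and the ratio was 1.66 without this library and 0.840 without Metaphase I replicate 3, both with the added CPM. Exons of Cdc25c share 623 bases with Gm3550 on the opposite strand, which had 876 counts against 777 for Cdc25c, and the strand setting of the counting is not given. Across the 40 cells the levels of both had a Spearman correlation of -0.21. The level of Cdc25c is therefore uncertain.

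Wee1 (chromosome 7, 110122046 to 110143286, plus strand) encodes the nuclear kinase that phosphorylates the tyrosine of CDK1. Wee1 ran from 0 to 46.1 CPM in Pachytene (median 16.5) and from 0 to 74.2 CPM in Metaphase I (median 20.4), with 6 Metaphase I cells above the highest Pachytene cell. Its summed ratio was 1.14 (0.979 to 1.32), and 1.43 (1.18 to 1.73) without the 8 libraries. Pkmyt1 (chromosome 17, 23726336 to 23736735, plus strand) ran from 4.59 to 38.0 CPM in Pachytene (median 13.1) and from 0 to 43.4 CPM in Metaphase I (median 17.8). The summed ratio of the inhibitor Pkmyt1 was 1.57 (1.31 to 1.87) from 236 and 287 counts. It was the highest of the 7 in the sums over all cells and, narrowly, with thinned cells (log2 0.42, against 0.41 for Ccnb1). This did not hold in every setting. With equal weight per cell the log2 ratio was 0.44 for Pkmyt1, below Cdc25c (0.59), Ccnb1 (0.51) and Wee1 (0.45), and by medians over cells it was 0.41, below Cdc25c (0.96), Cdk1 (0.71) and Ccnb1 (0.53). Without Pachytene replicate 7 it was 0.49, below Cdc25c (0.73). Leaving out 1 cell at a time gave 1.34 (without Metaphase I replicate 13) to 1.72 (without Pachytene replicate 16) for Pkmyt1, with the added CPM. Pkmyt1 shares 319 exon bases with Paqr4 on the other strand, which had 0 counts, and whether reads there were left uncounted was not tested.

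**Figure D2:**
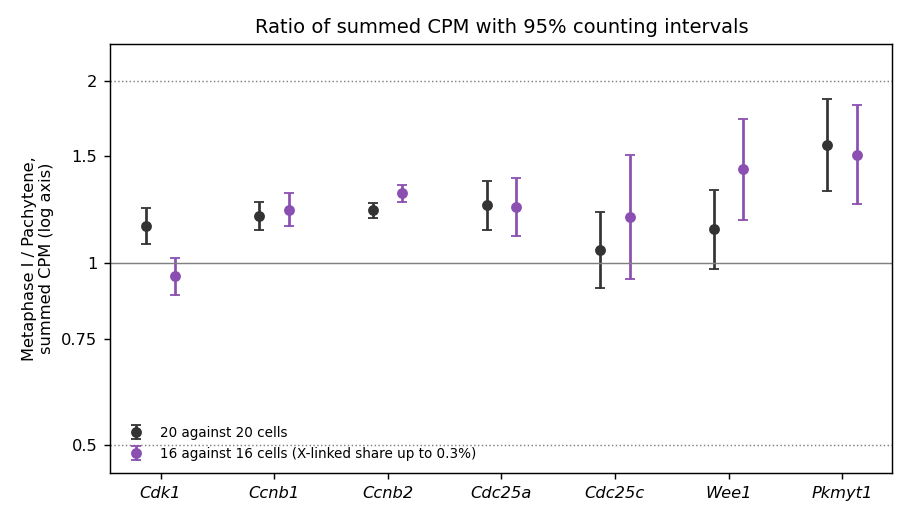
Ratio of summed CPM, Metaphase I over Pachytene, for the 7 measured genes on a log axis, with exact 95% intervals for counting error; black points use 20 cells a group and purple points the 16 a group with up to 0.3% X-linked counts. All points lie between the dotted lines at 2-fold, and Cdk1 moves from 1.15 to 0.951.

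Within a cell, shares of counts do not depend on the total of that cell. Ccnb1 made up 22.9% of the Ccnb1 and Ccnb2 counts in Pachytene (22.2% to 23.6%, Clopper-Pearson). In Metaphase I it was 22.5% (21.8% to 23.3%). These intervals overlap, while single cells ran from 1.52% to 44.9% in Pachytene and from 0.659% to 36.7% in Metaphase I. Ccnb2 counts thus exceeded Ccnb1 counts in all 40 cells. Of the Cdc25 counts, Cdc25a held 68.2% (65.6% to 70.6%) in Pachytene and 71.8% (69.2% to 74.3%) in Metaphase I. The medians over cells were higher, 84.4% and 84.5%. Without the 8 libraries the summed shares were 81.7% and 82.4%. The Cdc25a shares depend on Cdc25c, whose level is uncertain because of its overlap with Gm3550, and the intervals do not cover this. Wee1 held 61.4% (57.5% to 65.3%) of the Wee1 and Pkmyt1 counts in Pachytene and 53.6% (49.6% to 57.6%) in Metaphase I. The medians over cells lay the other way, at 50.0% and 57.0%. Without the 8 libraries both were near even, at 49.5% (44.6% to 54.5%) and 48.1% (43.6% to 52.6%).

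**Figure D3:**
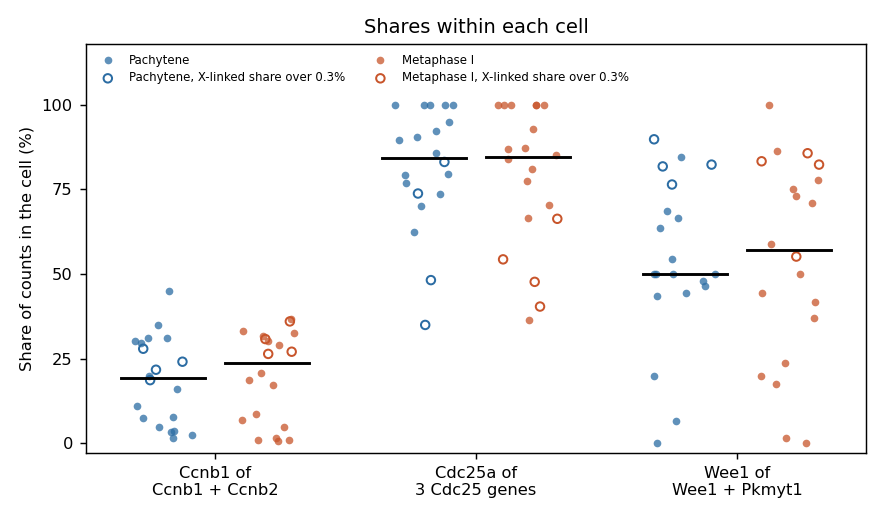
Share of counts within each cell in percent, for Ccnb1 among both cyclin B genes, Cdc25a among the 3 Cdc25 genes and Wee1 among Wee1 and Pkmyt1, with black bars at the group medians and open circles for the 8 libraries with over 0.3% X-linked counts. Ccnb1 stays under 50% in each cell, at most 44.9%, and most open circles lie low for Cdc25a and high for Wee1. Close to their group medians are Pachytene replicate 3 for Cdc25a (83.1%) and Metaphase I replicate 3 for Wee1 (55.2%).

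The 8 libraries held the switch transcripts in other proportions. Of these, Metaphase I replicate 19 is given apart. The remaining 7 had 1061 CPM or more of elongating spermatid markers, while the 32 others had up to 1236 CPM. Cdk1 had 17.5 CPM in the sum of the 7 and 129 CPM in that of the 32 others, 7.36-fold lower. By library it was 8.71, 12.1, 10.8 and 10.3 CPM in Pachytene replicates 2, 3, 7 and 19, and 21.5, 20.2 and 60.5 CPM in Metaphase I replicates 3, 7 and 17. The lowest of the 32 others was at 20.8 CPM, so 5 of the 7 lay below that range and 1 just inside it. The cyclins were not low there. Ccnb1 ran from 183 to 429 CPM and Ccnb2 from 631 to 964 CPM in the 7, inside the ranges of the 32. Cdk1 therefore made up 6.58% (5.38% to 7.95%) of the Cdk1 and Ccnb1 counts in the 7 libraries and 44.2% (43.0% to 45.3%) in the 32, a share chosen after the values were seen. Cdc25c was 6.53-fold higher in the sum of the 7 (75.7 against 11.6 CPM) and Wee1 2.23-fold higher (39.4 against 17.7 CPM). Pkmyt1 was 2.19-fold lower (8.49 against 18.6 CPM). Pachytene replicate 7 held 46.5% of the Cdc25c and 47.5% of the Wee1 counts of the 7. By library the ranges of the 7 and the 32 overlapped. They were 18.8 to 106 against 0 to 82.2 CPM for Cdc25c and 17.2 to 50.5 against 0 to 74.2 CPM for Wee1. For Pkmyt1 they were 5.16 to 14.0 against 0 to 43.4 CPM. The overlap with Gm3550 leaves the level of Cdc25c uncertain here too. The 8 libraries were set apart by X-linked counts, at a limit chosen with earlier results of these data known. The 7 also leave out Metaphase I replicate 19, and the differences were not tested. Metaphase I replicate 19 had 241 CPM of Cdk1 and 236 CPM of Ccnb1, with 419 CPM of Ccnb2.

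The cyclins and Cdc25 genes varied together from cell to cell. Correlations here are Spearman values over cells of log2(CPM + 1), given as description for all 21 pairs of the 7 genes. The cells share a protocol, and no p is given. Ccnb1 had a correlation of 0.82 with Ccnb2, 0.82 with Cdc25a, 0.75 with Cdc25c and 0.64 with Wee1 over the 40 cells. Pearson values for these pairs were 0.73, 0.77, 0.79 and 0.63. The 10 pairs among Ccnb1, Ccnb2, Cdc25a, Cdc25c and Wee1 ran from 0.50 to 0.82. They ran from 0.43 to 0.81 within the 20 Pachytene cells and from 0.52 to 0.82 within the 20 Metaphase I cells. Activators and the inhibitor Wee1 thus tended to be high in the same cells, in each group alone. Over the 32 cells outside the 8 libraries, Cdk1 and these 5 genes also moved with the sum of the 7 round spermatid markers, from 0.47 for Wee1 to 0.72 for Ccnb1. That sum ran from 200.4 to 786 CPM there. It is mostly Acr, which had counts in all 40 cells and medians of 348 CPM in Pachytene and 372 CPM in Metaphase I. The highest median of another marker in the sum was 20.3 CPM, for Tssk1 in Pachytene. With the sum of the 10 spermatocyte markers, which include Ccna1, the values ran from 0.31 for Cdc25a to 0.61 for Cdk1. The part of these markers in the covariation was not tested.

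The correlations of Cdk1 were lower over 40 cells than over the 32 outside the 8 libraries. With Ccnb1 it was 0.49 over 40 cells and 0.77 over 32. With Ccnb2 it was 0.43 and 0.85, with Cdc25a 0.30 and 0.64, with Wee1 0.26 and 0.71, and with Cdc25c 0.16 and 0.75. Within the 20 Pachytene cells, Cdk1 had -0.16 with Wee1 and -0.11 with Cdc25c. Pkmyt1 went the other way in all 6 of its pairs, from -0.45 with Cdc25a to -0.07 with Cdk1 over 40 cells, and from -0.41 to -0.20 over 32. At 523 counts in all it is the most sparsely counted of the 7, and most of these values are weak. After each cell was thinned to 340000 counts (36 cells), the 10 pairs ran from 0.37 to 0.89, the 5 of Cdk1 from 0.19 to 0.57 and the pairs of Pkmyt1 from -0.45 to -0.06.

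**Figure D4:**
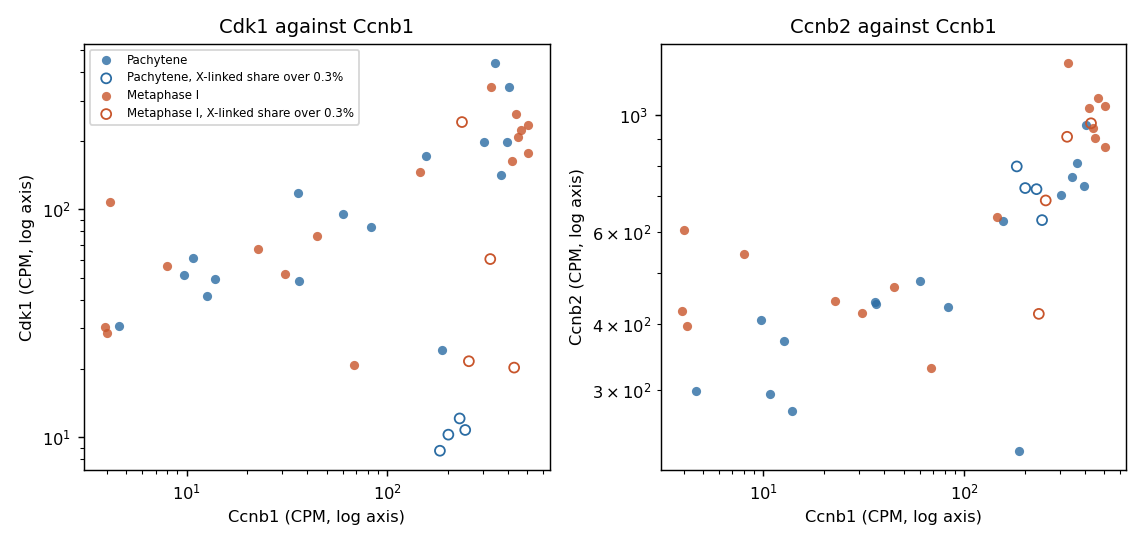
CPM of Cdk1 (left) and Ccnb2 (right) against Ccnb1 on log axes, 1 point per cell, open circles for the 8 libraries with over 0.3% X-linked counts. Cdk1 rises with Ccnb1 in the filled points (Spearman 0.77 over 32 cells), and 6 of the 8 open circles lie at 8.71 to 21.5 CPM of Cdk1 beside 183 to 429 CPM of Ccnb1.

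**Figure D5:**
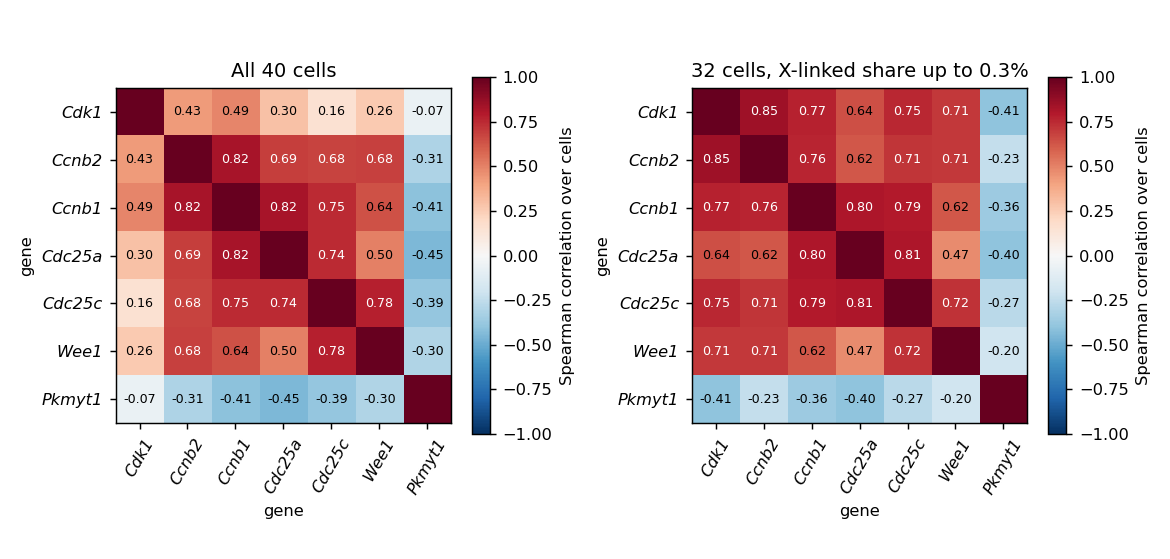
Spearman correlation over cells for the 21 pairs of the 7 measured genes, in all 40 cells (left) and in the 32 cells with up to 0.3% X-linked counts (right). The row of Cdk1 changes most, from 0.43 to 0.85 with Ccnb2, and that of Pkmyt1 is negative throughout.

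Genes with levels most like those of single switch genes were searched for. They were picked from 4058 candidates by the same correlations that are reported here, so the choice itself favours high values. The values within each group come from the same cells and are no separate check. Whether other transcripts track the switch as closely as its own genes do was not tested. Among 4058 named genes with 1000 counts or more and counts in at least 36 cells, those most like Ccnb1 over the 40 cells were Plk1, the Polo kinase that activates CDC25 (Spearman 0.92), Ccna1, the germline cyclin A1 needed to leave prophase (0.91), and Rfx8 (0.90). Within Pachytene these were 0.88, 0.82 and 0.85, and within Metaphase I 0.88, 0.90 and 0.84. The genes most like Cdk1 were Alkbh4 (0.87), the spindle kinase gene Aurka (0.86) and Fam118b (0.84). For Ccnb2 they were Fa2h (0.87), the Mediator subunit gene Med28 (0.86) and Zfp39 (0.86). Cdc25a was nearest to the kinetochore motor gene Cenpe (0.85), to Plk1 (0.82) and to Ccnb1 itself (0.82). Wee1 was nearest to Gid8 (0.77), Naa30 (0.77) and Ddias (0.75), and Pkmyt1 to Ccar2 (0.66), Prmt5 (0.62) and Wipi2 (0.61). Cdc25c, with counts in 29 cells, was not searched.

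The promoters of the kinase gene and both cyclin genes are shown, and the part of promoter sequence in the covariation of transcripts was not tested. Each line gives the 250 bases before the RefSeq start site, from the RefSeq promoters on GRCm38.p6, read on the strand of the gene. Capitals mark TTTGAA, the core of the CHR element of genes expressed in G2 and M phase, and CCAAT, the box bound by NF-Y (ATTGG where it lies on the other strand).
Cdk1, chr10:69352913-69353162, minus strand: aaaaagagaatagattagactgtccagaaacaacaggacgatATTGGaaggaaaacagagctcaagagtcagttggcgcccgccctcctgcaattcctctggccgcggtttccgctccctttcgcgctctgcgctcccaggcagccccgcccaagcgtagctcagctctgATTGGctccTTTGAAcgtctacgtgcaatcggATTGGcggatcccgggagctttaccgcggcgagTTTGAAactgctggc
Ccnb1, chr13:100786487-100786736, minus strand: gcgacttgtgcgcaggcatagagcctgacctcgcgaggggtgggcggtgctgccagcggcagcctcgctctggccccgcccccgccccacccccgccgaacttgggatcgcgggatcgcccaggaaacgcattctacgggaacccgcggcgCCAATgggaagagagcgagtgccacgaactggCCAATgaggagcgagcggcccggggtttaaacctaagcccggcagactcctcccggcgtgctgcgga
Ccnb2, chr9:70421555-70421804, minus strand: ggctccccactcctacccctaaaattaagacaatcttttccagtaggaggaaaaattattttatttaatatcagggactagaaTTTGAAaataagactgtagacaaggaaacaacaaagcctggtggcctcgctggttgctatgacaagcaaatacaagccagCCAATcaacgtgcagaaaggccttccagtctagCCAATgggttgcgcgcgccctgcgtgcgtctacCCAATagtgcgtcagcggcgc
In the full window of 300 bases, which runs on past the start site, CCAAT was found on either strand 3 times for Cdk1, 2 times for Ccnb1 and 3 times for Ccnb2, while 11.7% of 32851 promoters hold it at least 2 times and 37.4% at least once. The Ccnb2 boxes begin 87, 54 and 21 bases upstream of the start site. TTTGAA was found 2 times for Cdk1, 71 and 15 bases upstream, and 2 times for Ccnb2, 167 bases upstream and at base 5 of the transcript. These letters were not in the window of Ccnb1. Of all promoters, 17.9% hold them at least once and 2.31% at least 2 times. The Myb core AACTG was found 3 times for Cdk1 and 1 time for Ccnb1, and 1 of the Cdk1 matches overlaps TTTGAA by a base. It is present at least once in 44.8% of promoters and at least 2 times in 13.7%. Of the 8 genes 5 had a promoter in this table. Those of Cdc25a and Cdc25b, not printed, held CCAAT 2 times and 1 time and neither of the other motifs. Such matches describe letters and are not binding sites.

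Other genes of the pathway were counted from lists of 55 genes, of which 51 were measured. Past 2-fold, 5 of the 51 were higher in Metaphase I and 1 was lower, beside 8.49% and 9.81% of all genes. Their median log2 ratio was 0.20. Without the 8 libraries the numbers were 2 and 0 of 49 (median 0.09), against 6.32% and 4.13% of all genes. The higher genes numbered 3 without any one of Metaphase I replicates 1, 14 and 19. The lower ones numbered 0 without Pachytene replicate 7, 3 without Metaphase I replicate 3, and 2 in 17 of the other single omissions. Single libraries therefore decide much of these counts.

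Of 9 measured kinase-activating genes and cyclin partners 1 was over 2-fold higher and 0 lower. It was Ccnh, the cyclin H of the CDK-activating kinase, at 2.02-fold (1.84 to 2.22), only just past the limit. Its log2 ratio was 1.00, and 1.17 without the 8 libraries. Metaphase I replicate 13 carried 25.5% of the Ccnh counts of its group. The medians over cells, 40.8 CPM in Pachytene and 35.97 CPM in Metaphase I, lay the other way. Ccna1 had a ratio of 1.20 (1.15 to 1.25), the same as Ccnb1. Cyclin A2, encoded by Ccna2, had 25 counts in Pachytene, 76.0% of them in replicate 7, and 3 in Metaphase I. Its ratio was 6.47-fold lower (1.97 to 33.5), and its log2 ratio with the added CPM was -0.99, or -0.40 without the 8 libraries. Ccnb3, the third B-type cyclin gene, had 0 counts in all 40 cells. Of the 4 chaperone and translation genes, among them Hspa2, whose product assembles CDK1 with cyclin B in spermatocytes, 0 were over 2-fold either way. Hsp90aa1 had the largest log2 ratio there, 0.24. Of the 5 measured genes in a list of mitotic kinases and their cofactors also 0 were, and Aurkb had the largest log2 ratio, -0.29.

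Of 6 genes of the Greatwall axis, the phosphatase PP2A-B55 that opposes CDK1 and the kinase and inhibitors that block it, 1 was over 2-fold higher and 0 lower: the PP2A scaffold gene Ppp2r1a, at 2.71-fold (2.21 to 3.34). Metaphase I replicate 19 carried 46.8% of the Ppp2r1a counts of its group, and the log2 ratio was 0.25 without the 8 libraries. Of 8 measured genes of the checkpoint and of CDC25 or WEE1 turnover, 2 were higher and 0 lower. The ubiquitin ligase gene Fbxw11 had a ratio of 3.03 (2.04 to 4.58), and replicate 19 again carried 54.0% of the group. Its log2 ratio was -0.39 without the 8 libraries. The checkpoint kinase gene Chek2 had 4 and 21 counts, 6.76-fold higher (2.28 to 27.1), and replicate 1 held 61.9% of the 21. Its log2 ratio was 1.05, and 1.14 without the 8 libraries. Of 4 measured CDK inhibitors 1 was higher and 0 lower, Cdkn1a, with 5 and 430 counts, 95.1% of the latter in replicate 19, and a log2 ratio of 0.46 without the 8 libraries.

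Genes for the destruction of cyclin B and for G2 and M transcription stayed within 2-fold with 1 exception. Of 6 destruction genes 0 were past it, and Anapc2, a subunit of the anaphase promoting complex, had the largest log2 ratio, 0.54. Of 9 transcription regulators 0 were higher and 1 lower, Mybl2, at 3.01-fold (1.92 to 4.88) from 97 and 25 counts. Pachytene replicate 7 held 58.8% of the 97, and the log2 ratio of Mybl2 was -0.24 without the 8 libraries. Over the 40 cells the Spearman correlation with Ccnb1 was 0.82 for Foxm1, a transcription factor of G2 and M genes. Foxm1 was the highest of the 9 transcription regulators, and the others ran from -0.42 to 0.50. Of the activators of the anaphase promoting complex, Fzr1 had 0.79 and Cdc20 0.18, and the destruction genes together ran from -0.16 to 0.79. The measured kinase-activating genes and cyclin partners ran from -0.73 to 0.91. For Arpp19, the phosphatase inhibitor acted on by Greatwall, the correlation with Ccnb1 was -0.79. Foxm1, Fzr1, Cdc20 and Arpp19 were chosen after their values were seen.

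Copies of Ccnb1 could take some of its reads. At 90% identity or more over at least 200 bases, 5 other GENCODE M21 genes matched Ccnb1, of which Gm12856 (98.1% over 1294 bases) had 103 counts, Ccnb1-ps 7 and Gm8416 6, against 5643 for Ccnb1. Gm12856 followed Ccnb1 over the 40 cells (Spearman 0.81). No such copy was found for Cdk1, Ccnb2, Cdc25a or Wee1.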

How the data were processed

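Single-cell RNA libraries were made by a modified STRT-seq protocol with oligo(dT) priming and retention of 3' ends, per the labels' protocols. The submitters' processing notes name UMI-tools, STAR, featureCounts and GRCm38, without versions. The authors deposited whole-number counts per gene. Not given in the sources used here are the annotation release, the strand setting, and whether reads or molecules were counted. The value columns all matched a library by name. Deposited positions of the 8 genes are the same in GENCODE M21. The members and lists were chosen with earlier results of these data known, as was the limit of 0.3% X-linked counts.

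For each group, the 20 cells were added up gene by gene and scaled by their joint total (CPM). Log2 ratios used a pseudocount of 1 CPM. Summed counts have exact Poisson, ratios exact conditional binomial and shares Clopper-Pearson intervals at 95%, for counting error only. If reads were counted, they understate the error. With 1 sample a group no test was made and no p is given. In pairs of libraries of a group, chi-square per degree of freedom was 2.69 or more, so none was treated as a copy. No doublet caller was run on 40 cells. Named were all 8 genes, list members over 2-fold or with the largest ratio of a list, and the 3 genes most correlated with each member. Ccnb3, Ccna2, Hspa2, Foxm1, Fzr1, Cdc20 and Arpp19 fall outside this rule and were chosen after their values were seen, as were genes named for overlap or as copies. The code (Python 3.11.15, scipy 1.17.1, edgeR 4.0.16 for TMM factors) was tested on simulated counts. Alternatives were equal weight per cell, medians over cells, TMM and median-of-ratios scaling, other totals, pseudocounts and count minimums, thinning to 340000 counts (1 Pachytene and 3 Metaphase I cells left out), and omission of libraries.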

Additional observations from a re-analysis of the deposited data

How the results depend on the processing

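With a pseudocount added, no member was over 2-fold higher or lower under any of the 11 alternatives or 40 single omissions. Without one, the medians over cells of Cdc25c had a ratio of 2.04. The 7 ratios were above 1 in 62 of 63 values over 9 alternatives, and the exception was Cdk1, with a log2 ratio of -0.071 without the 8 libraries over 0.3% X-linked counts. Over single omissions it ran from -0.0045 (without Metaphase I replicate 20) to 0.43 (without Pachytene replicate 11), and the cause was not tested. That of Cdc25c was below 0 in 6 of the 40 omissions. The median log2 ratio of the members was 0.44 with equal weight per cell and 0.11 to 0.36 over single omissions. Pathway genes over 2-fold higher numbered 3 with equal weight or thinned cells, 1 with medians over cells or a pseudocount of 10 CPM, 2 without the 8 libraries and 3 to 5 over single omissions. The lower ones numbered 0 with equal weight, a pseudocount of 10 CPM or without the 8 libraries, 2 with TMM scaling, a pseudocount of 0.1 CPM or totals that leave out mitochondrial and ribosomal protein genes, and 0 to 3 over single omissions. As medians over cells, the Ccnb1 share was 19.3% in Pachytene and 23.6% in Metaphase I, the Cdc25a share 84.4% and 84.5%, and the Wee1 share 50.0% and 57.0%, the order of the groups turned. Without the 8 libraries these shares were 22.04% and 21.0%, 81.7% and 82.4%, and for Wee1 49.5% and 48.1%. Single omissions gave 21.7% to 23.6% and 20.8% to 24.3% for Ccnb1, 64.9% to 77.9% and 68.7% to 75.7% for Cdc25a, and 54.7% to 65.8% and 50.7% to 59.9% for Wee1. The correlation of Cdk1 without the 8 libraries was 0.77 with Ccnb1 and 0.85 with Ccnb2. Of 84 alternative correlations 74 moved by at most 0.2. No paired analysis was possible because a replicate number marks a single cell and links no cells across the groups, and no test was made. Depth limits Cdc25b, Chek2 and Ccna2, the last with 25 and 3 counts.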
